A study of Mus musculus with 2 samples.

Results

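Serine, glycine and one-carbon metabolism was described here through 10 genes in a mouse embryonic stem (ES) cell line that carries a deletion in the interval of Williams-Beuren syndrome (WBS). The 10 were Tdh and Gcat of threonine breakdown, Gldc of glycine cleavage, Phgdh and Psat1 of serine synthesis, Shmt1 and Shmt2, which exchange serine and glycine, and Mthfd1, Mthfd2 and Mthfd1l of folate metabolism. Every probe set that the platform annotation assigns to exactly 1 of these symbols was taken, which gave 21 of the 34958 probe sets with a single symbol and 8 of the 18194 genes measured. Tdh and Gcat had 0 such probe sets, so threonine breakdown was not measured here: 3 probe sets name Gcat together with its neighbour Galr3 and were left unnamed, and no probe set was assigned to Tdh here. RefSeq places 0 of the 10 genes on the chromosome that holds Gtf2i and Fkbp6, the ends of the mouse WBS segment.

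The study profiled expression in a mouse line (ESSP9) with the genotype Del1.3MbWBS, a deletion of 1.3 Mb, to find genes altered in the syndrome, which in people follows from a deletion of the matching interval. Its 2 arrays form 1 group, biological replicates 1 and 2, and the labels do not say how many copies of the segment were lost, whether the line is 1 clone, or whether the replicates were separate cultures, so the spread between them may be technical. Per the labels' protocols both came from cells grown with LIF (leukaemia inhibitory factor) and 20% serum replacement on feeder cells, and 6 µg of total RNA was labelled. No line without the deletion was analysed here, so the values describe how strongly each gene was measured and how closely the replicates matched, not an effect of the deletion, and no test between conditions was possible.

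Cells build serine from a glycolytic intermediate in a short pathway that begins with Phgdh and continues with Psat1. The Shmt enzymes split serine into glycine and a one-carbon unit carried by folate, and the Mthfd enzymes interconvert the folate-bound forms in the cytosol and in mitochondria, supplying purine and thymidylate synthesis and methylation. Mouse ES cells are known for drawing glycine and one-carbon units from threonine through Tdh and Gcat, with glycine then cleaved by Gldc and its partners.

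Promoter sequence was available for 9 of the 10 genes, in 10 windows of 300 bases that run from 250 bases before to 50 bases after an annotated transcript start (RefSeq, GRCm38.p6); Psat1 had a pair of starts and Tdh had no entry. Each window was searched on both strands for CCAAT (the CCAAT box bound by NF-Y), GGGCGG (the GC box bound by Sp1), CACGTG (the E-box of Myc and Max), TGATGNAA (a form of the composite element bound by ATF4) and TGACGTCA (the cAMP response element). A CCAAT box was present in 6 of the 10 member windows, against 37.4% of all 32851 windows in the table, and in 6 of 9 genes. A GC box was present in 6 of the 10 member windows against 35.7% of all windows. The E-box was present in 1 member window, that of Gcat, against 7.15%. The ATF4 form was present in 0 of 10, against 3.97%, and the cAMP response element in 0 of 10, against 1.79%. These matches describe the letters in the windows and are not evidence of binding.

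More than 1 CCAAT box was held by the windows of Phgdh, Mthfd2 and the upstream start of Psat1, and their 250 bases before the start are shown for that reason, a choice made after the motifs were counted. They are printed 5′ to 3′ on the strand of the gene, with the CCAAT box, or ATTGG where it lies on the other strand, in capitals. The Phgdh stretch is chr3:98339970-98340219, the Psat1 stretch chr19:15925060-15925309 and the Mthfd2 stretch chr6:83317605-83317854, all on the minus strand of GRCm38.p6.
Phgdh promoter: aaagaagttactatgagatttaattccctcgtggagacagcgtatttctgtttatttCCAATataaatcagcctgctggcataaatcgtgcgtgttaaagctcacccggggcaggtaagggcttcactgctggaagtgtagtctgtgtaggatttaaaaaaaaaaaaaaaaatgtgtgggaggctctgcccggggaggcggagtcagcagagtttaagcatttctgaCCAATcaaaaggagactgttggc
Psat1 promoter: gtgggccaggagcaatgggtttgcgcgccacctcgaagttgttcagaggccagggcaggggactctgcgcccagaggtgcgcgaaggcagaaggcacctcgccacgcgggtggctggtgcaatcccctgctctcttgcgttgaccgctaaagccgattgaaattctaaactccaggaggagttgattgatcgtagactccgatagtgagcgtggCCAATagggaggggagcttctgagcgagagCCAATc
Mthfd2 promoter: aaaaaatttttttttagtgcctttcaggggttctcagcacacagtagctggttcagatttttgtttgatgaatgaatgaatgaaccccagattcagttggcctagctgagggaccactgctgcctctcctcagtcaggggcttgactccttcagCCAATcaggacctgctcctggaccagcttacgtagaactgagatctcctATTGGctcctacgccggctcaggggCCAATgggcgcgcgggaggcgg

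Counting the start as base 0, the Phgdh boxes began at -193 and -23. The Psat1 boxes began at -36, -6 and 23, the last of which lies past the printed stretch; the window of its other start, chr19:15924573-15924872, held 0 CCAAT boxes and 2 GC boxes. The Mthfd2 boxes began at -96, -47 and -22, with the middle one on the other strand. Gldc had 1 CCAAT box at -66, Shmt1 had 1 at -47 and Mthfd1 had 1 at -69, all on the other strand. The Shmt1 window held 4 GC boxes, of which the last 2 overlap by their end base. The Shmt2 window held 0 of the 5 motifs.

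**Figure D1:**
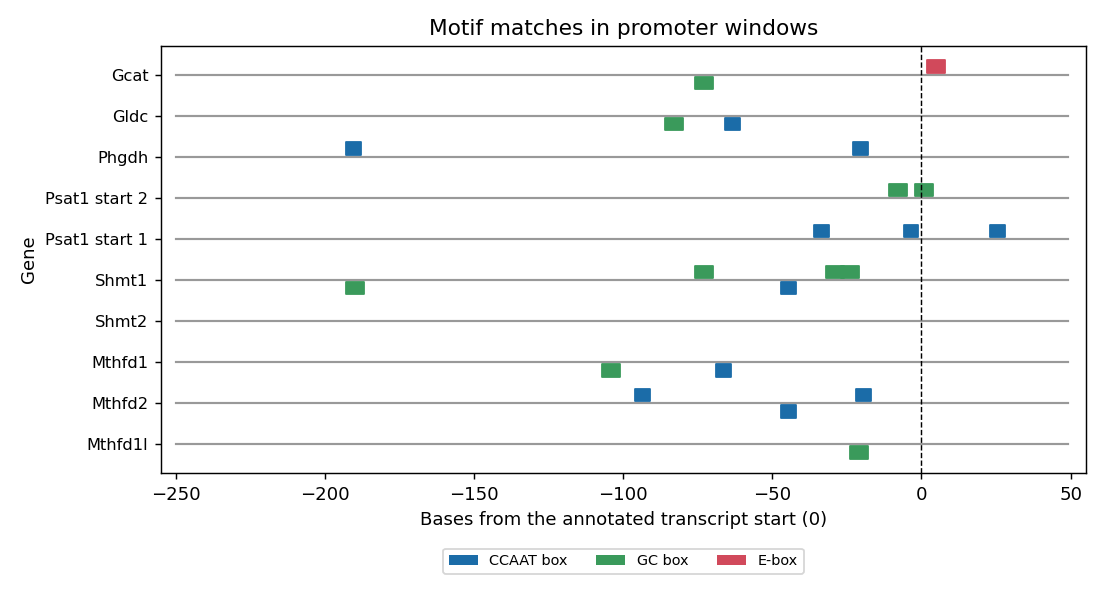
Motif matches in 10 promoter windows of 9 genes, with the distance in bases from the annotated transcript start (0) on the horizontal axis and 1 line per window; blocks above a line lie on the strand of the gene and blocks below it on the other strand (the palindromic E-box is drawn above), and Psat1 start 1 is the upstream of its starts. CCAAT boxes lie in the 100 bases before the start except the Phgdh box at -193 and the Psat1 box at 23, and Shmt2 has no match.

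All 8 measured genes were above background on both arrays, as were all 21 of their probe sets. Values are RMA log2 values, background-corrected and normalized probe intensities on which 1 unit is a doubling. Above background means over 5.59 in the mean, the level that 95% of 39 olfactory receptor genes (taken as silent here) did not exceed, and over 5.60 on replicate 1 and 5.58 on replicate 2. By the same rule 68.4% of the 18194 genes were above background, each on its brightest probe set. The share over all single probe sets was not taken, so the count of 21 has no such share beside it. Taking the brightest favours genes with more probe sets, and the members were chosen with earlier results of these data known. The lowest of the 21 probe sets lay 1.16 log2 units above the threshold. Probe sets differ in affinity, so no order of levels between the 8 genes was drawn.

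The cells were grown on feeders, and transcripts taken as fibroblast markers were plentiful in the RNA. Which cells made them was not tested. Of 13 measured fibroblast markers 13 were above background, from 8.77 to 14.88 on replicate 1 and from 8.85 to 14.87 on replicate 2; Col1a1 was at 12.67 ± 0.021, Col1a2 at 14.87 ± 0.0061 and Col3a1 at 14.86 ± 0.0025 (SD, n = 2). Of 10 ES cell markers 10 were, from 6.35 to 12.65 on replicate 1 and from 6.29 to 12.62 on replicate 2, with Pou5f1 at 12.63 ± 0.020, Nanog at 12.11 ± 0.063 and Sox2 at 12.11 ± 0.047. Of 4 blood cell markers 2 were, Cd3e and Csf1r, while Itgam was at 3.92 ± 0.077 and Ptprc, which all leukocytes express, at 4.05 ± 0.13. The share of each metabolic transcript that came from ES cells, from feeders or from other cells was not tested. More cells of a type cannot be told apart from more RNA per cell.

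Of the serine synthesis genes, Phgdh, the enzyme of the committed step, was measured by 4 probe sets. On probe set 1454714_x_at it was 11.03 on replicate 1 and 11.08 on replicate 2, a mean of 11.05 ± 0.034 (SD, n = 2). On 1437621_x_at it was 10.89 and 10.98, on 1426658_x_at 10.07 and 10.05, and on 1456584_x_at 9.84 and 9.70. Both arrays thus put all 4 probe sets over 4 log2 units above the threshold, and replicate 2 was the higher on 2 of them and the lower on the other 2. All 4 carry the mark _x_at, given to probe sets whose probes may also match other transcripts, and 2 further probe sets were left out because they name Phgdh together with a pseudogene, Gm8096 or Gm6756. The probe sets of Gm8096 alone were at 4.23 ± 0.19 and 5.74 ± 0.15, the second of them just over the threshold, and Gm6756 had none of its own here. How much these copies add to the Phgdh values was not tested.

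Psat1, the aminotransferase that follows Phgdh, was 10.83 on replicate 1 and 10.70 on replicate 2 on probe set 1451064_a_at, a mean of 10.76 ± 0.090 (SD, n = 2). On 1454607_s_at, a set marked as matching several transcripts, it was 10.47 and 10.48. The difference, replicate 2 minus replicate 1, was thus -0.13 log2 units on the first probe set and 0.012 on the second. The probe sets of Psat1 had means within 0.29 log2 units of each other, the closest agreement among the 6 genes with more than 1 probe set.

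Of the serine hydroxymethyltransferases, Shmt1 encodes the cytosolic enzyme. It was 9.97 and 9.91 on replicates 1 and 2 on probe set 1425179_at, a mean of 9.94 ± 0.039 (SD, n = 2). The other probe sets gave 8.99 and 8.98 on 1422198_a_at, 8.87 and 8.74 on 1425177_at, and 8.78 and 8.82 on 1425178_s_at. Replicate 1 was the higher on 3 of the 4. Of these 4 sets 2 carry none of the marks _a_at, _s_at and _x_at, and both were above background.

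Shmt2 encodes the mitochondrial enzyme. It was 9.69 on both replicates on probe set 1455084_x_at, with a mean of 9.69 ± 0.0017 (SD, n = 2). Its unmarked probe set, 1426423_at, gave 8.49 and 8.53. The remaining sets were far dimmer, at 6.89 and 7.02 on 1434204_x_at and 6.73 and 6.76 on 1455985_x_at. The probe sets of Shmt2 thus spanned 2.95 log2 units, the widest span among the 6 genes, and the gene's level depended on which one stood for it: the median of all 4 was 7.73 and the unmarked set 8.51. All of these were above background.

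Of the folate enzymes, Mthfd1, the trifunctional enzyme of the cytosol, was 10.99 and 10.93 on replicates 1 and 2 on probe set 1415916_a_at, a mean of 10.96 ± 0.041 (SD, n = 2). On 1415917_at, which has no mark, it was 10.31 and 10.30, and on 1436704_x_at 9.34 and 9.24. Replicate 1 was the higher on all 3, with differences (replicate 2 minus replicate 1) from -0.098 to -0.011.

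Mthfd2 encodes a mitochondrial dehydrogenase and cyclohydrolase known for its high expression in embryos and dividing cells. It was 10.15 on both replicates on probe set 1419254_at, equal to the last deposited digit, which held for 47 of the 45101 probe sets of the arrays. On 1419253_at it was 9.22 and 9.21. Neither probe set carries a mark of shared probes. Mthfd1l, the mitochondrial enzyme that releases formate, had 1 probe set, 1456653_a_at, at 9.74 and 9.73, a mean of 9.74 ± 0.0026 (SD, n = 2). The cytosolic arm (Shmt1, Mthfd1) and the mitochondrial arm (Shmt2, Mthfd2, Mthfd1l) of folate metabolism were thus both above background.

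Gldc, the decarboxylase of the glycine cleavage system, also had 1 probe set. On 1416049_at, which has no mark, it was 9.14 on replicate 1 and 9.04 on replicate 2, a mean of 9.09 ± 0.069 (SD, n = 2), or 3.50 log2 units above the threshold.

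**Figure D2:**
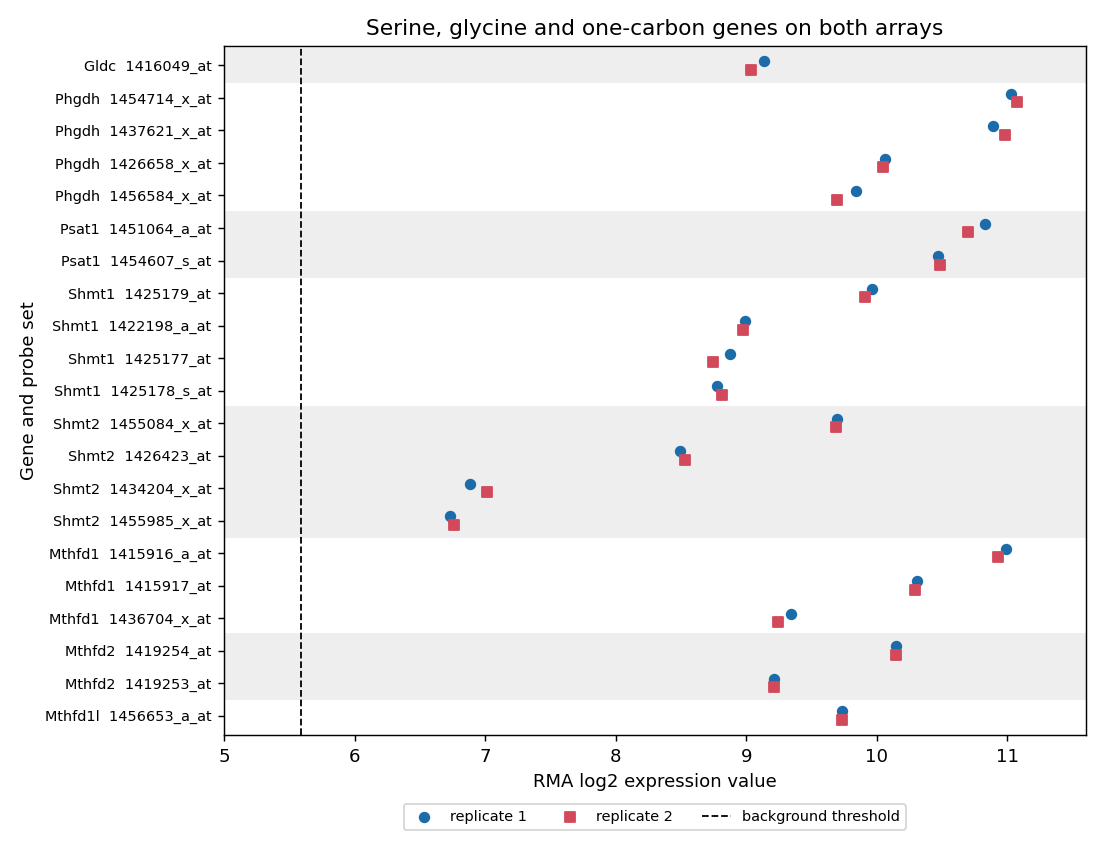
RMA log2 expression values (horizontal axis) of the 21 probe sets of the 8 measured genes, with a circle for replicate 1, a square for replicate 2 and the background threshold of 5.59 as a dashed line. Every point lies right of the line, the replicates differ by at most 0.14 log2 units, and the 4 probe sets of Shmt2 spread the most.

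The replicates differed little in these genes. On the brightest probe sets the difference, replicate 2 minus replicate 1, ran from -0.13 for Psat1 to 0.048 for Phgdh, with a median of -0.029 over the 8 genes, against 0.015 over the 12769 genes above the array threshold on at least 1 array. Replicate 1 was the higher in 6 of the 8 genes, replicate 2 in 1 (Phgdh), and Mthfd2 was equal. Of the 6, Shmt2 differed by only -0.0024 and Mthfd1l by -0.0036. Over the 21 member probe sets replicate 1 was the higher in 13, replicate 2 in 7, and 1 was equal. Among the 12769 genes replicate 2 was the higher in 56.8%. A difference of 1.5-fold or more was seen in 0 of the 8, and in 0.0783% of all such genes. Over those genes the SD of the difference was 0.114 and 95% lay between -0.24 and 0.24, and 0 of the 21 member probe sets fell outside that range.

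Differences shrink with level, so each gene was also read against genes of like mean. On the brightest probe sets Psat1 alone of the 8 lay outside the central 95% of such genes. Among the 1422 genes with means from 10 to 11, 95% of differences lay between -0.10 and 0.14. Psat1 at -0.13 lay below that range, with 95.4% of those genes differing less in size. Its second probe set differed by 0.012. With 8 genes each read against a 95% range, 1 outside it carries little weight. Gldc at -0.098 lay inside the range of -0.13 to 0.16 for the 2188 genes with means from 9 to 10. Shmt1, Shmt2 and Mthfd1l lay inside that same range, Mthfd1 and Mthfd2 inside that of genes from 10 to 11, and Phgdh inside the range of -0.099 to 0.12 for the 842 genes from 11 to 12. On a dimmer Phgdh probe set, 1456584_x_at (mean 9.77), the difference of -0.14 lay below the range for means from 9 to 10.

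**Figure D3:**
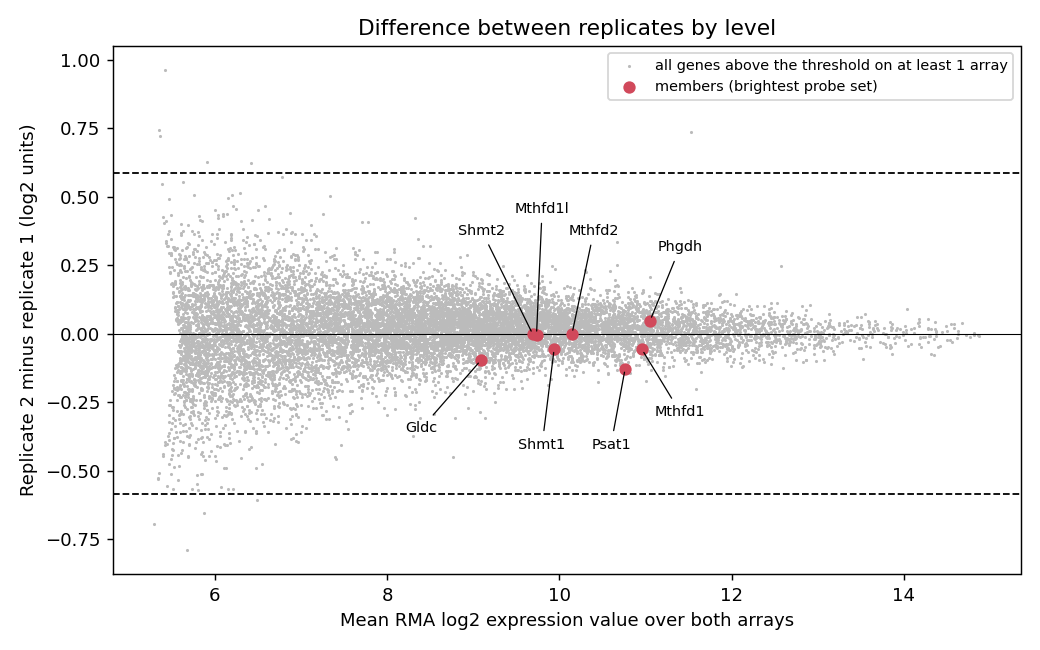
Difference between replicates (replicate 2 minus replicate 1, log2 units) against the mean RMA log2 value for 12769 genes (grey) and the 8 members on their brightest probe sets (red), with dashed lines at 1.5-fold. The members lie between -0.13 and 0.048, far inside the dashed lines.

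The wider pathway was read from a list of 49 further genes of serine, glycine, folate, methionine and purine metabolism, of which 43 were measured. Of these 35 were above background (81.4%, against 68.4% of all genes). The list was chosen with earlier results of these data known, so the gap between these shares is no evidence about the pathway. The counts by role below stand beside the same share of all genes. Next to Phgdh and Psat1, the phosphatase Psph, which completes serine synthesis, was at 9.54 ± 0.065 (SD, n = 2), and all 4 measured genes of that group were above background, among them Cbs (6.58 ± 0.13) and Cth (10.65 ± 0.0055), which pass the sulfur of homocysteine to cysteine. The partners of Gldc that were measured, Gcsh (12.11 ± 0.012) and Dld (9.69 ± 0.10), were both above background. Amt, their aminomethyltransferase, had no probe set of its own here.

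Beside the Shmt and Mthfd genes, 6 of 9 measured folate enzymes were above background (66.7%, near the 68.4% of all genes). They included Mthfd2l, a mitochondrial relative of Mthfd2, at 8.15 ± 0.012, and the formyltetrahydrofolate dehydrogenases Aldh1l1 at 6.84 ± 0.096 and Aldh1l2 at 7.81 ± 0.077. Mthfs (4.66 ± 0.013), Ftcd (5.50 ± 0.071) and the thymidylate synthase gene Tyms (5.51 ± 0.061) were not; 1 further probe set that names Tyms with its pseudogene was left out. Of the 5 folate carriers and receptors 4 were above background, with Slc19a1 at 8.94 ± 0.062, Slc46a1 at 6.36 ± 0.24 and the mitochondrial carrier Slc25a32 at 7.88 ± 0.036, while Folr2 (5.64 ± 0.17) exceeded the threshold on replicate 2 but not on replicate 1.

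All 6 purine synthesis genes, whose pathway takes up the formyl groups that Mthfd1 makes, were above background, with Ppat at 10.07 ± 0.017, Gart at 10.38 ± 0.014 and Pfas at 10.27 ± 0.023. In the methionine cycle 6 of 9 were (66.7%, also near the 68.4% of all genes). Those above background included Mtr at 8.17 ± 0.057, Mtrr at 8.95 ± 0.042 and Mat2b at 10.12 ± 0.044. The 3 that were not were Mat1a (3.70 ± 0.0045), Bhmt (4.69 ± 0.082) and Gnmt (5.50 ± 0.23). Gnmt exceeded the threshold on replicate 1 (5.67) but not on replicate 2 (5.34). Of other users of threonine, the transfer RNA synthetase genes Tars1 (10.81 ± 0.013) and Tars2 (8.60 ± 0.014) were above background and the threonine aldolase gene Tha1 (4.999 ± 0.27) was not. All 5 amino acid transporter genes were, with Slc1a4 at 7.81 ± 0.049, Slc1a5 at 6.35 ± 0.038 and Slc6a9 at 6.95 ± 0.016.

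**Figure D4:**
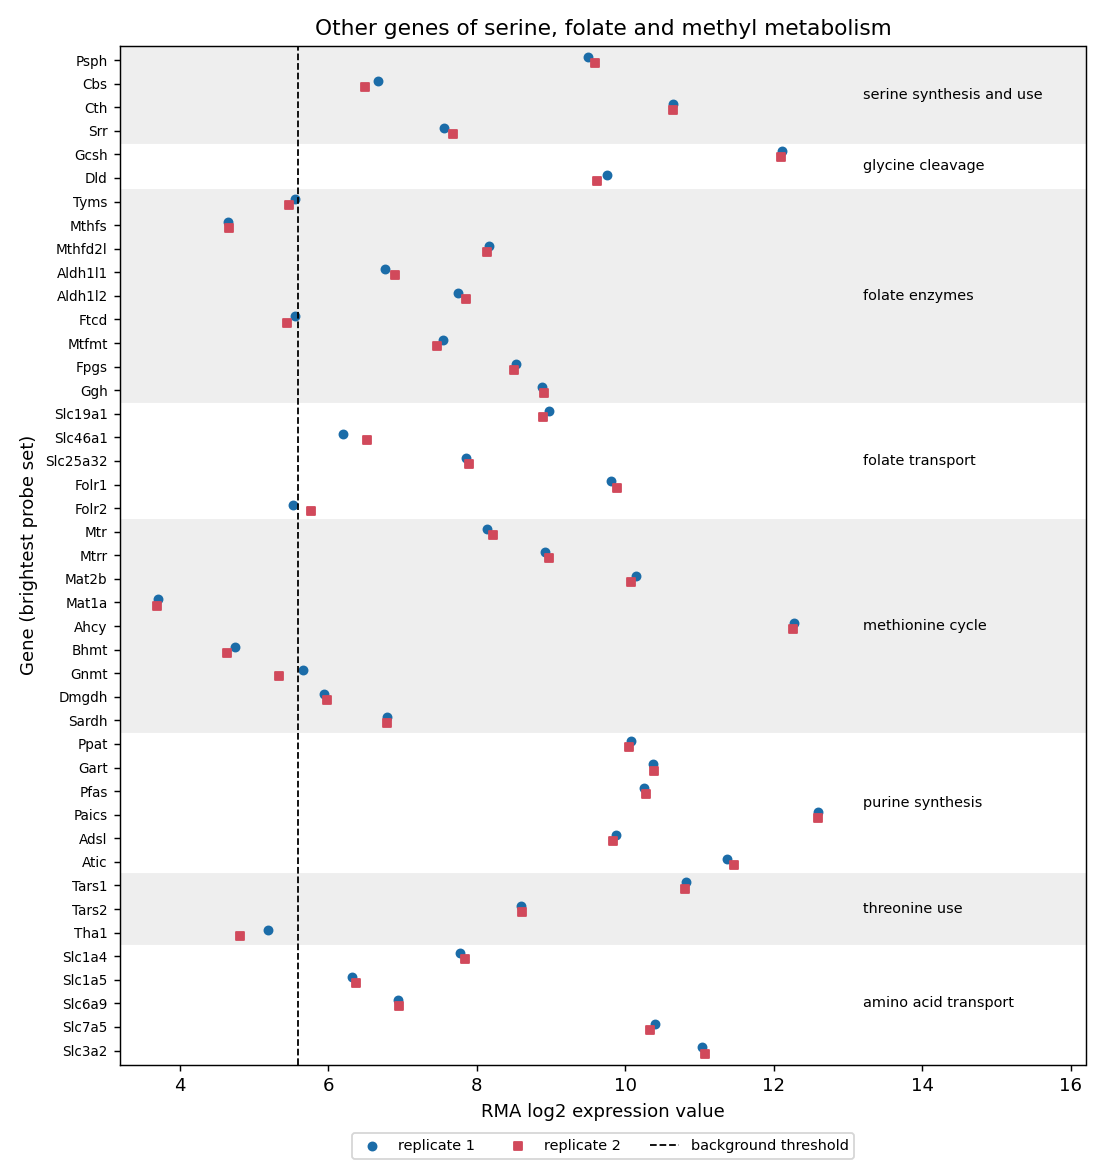
RMA log2 expression values (horizontal axis) of 43 further genes on their brightest probe sets, grouped by role, with circles for replicate 1, squares for replicate 2 and the threshold of 5.59 dashed. Purine synthesis genes all lie right of the line, and Mat1a, Mthfs, Bhmt, Tha1, Tyms and Ftcd lie left of it on both arrays.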

How the data were processed

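The authors deposited a log2 value for each probe set on each array. They used RMA, per the submitters' processing notes, a method that corrects background, quantile-normalizes and summarises probes; its version is not given in the sources used here. Such normalization gives arrays nearly equal distributions (medians 6.01 and 6.01) and hides a shift common to most genes. Arrays have no read depth; their number, 2, limits the precision.

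A platform annotation named the probe sets: of 45101, 34958 had 1 symbol, 932 several and 9211 none here. The brightest probe set stood for a gene. Background was the 95th percentile of olfactory receptor genes (symbol Olfr and a number), for the mean and for each array. Differences between replicates were taken over genes above it on at least 1 array. No test was run, since there is 1 group. The members and lists were chosen with earlier results of these data known. The text names all members, and from the longer list the first 3 genes above background of each role and every gene not above it, and of the markers the first 3; Gm8096, Gm6756 and Csf1r are named outside this rule, chosen after their values were seen. Alternatives changed the probe set, the threshold, the normalization (loess fraction 0.3), the filter and the fold, or left out 1 array. Columns not used numbered 0. Python 3.11.15, numpy 2.4.6, pandas 2.3.3 and statsmodels 0.14.6 were used.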

Additional observations from a re-analysis of the deposited data

How the results depend on the processing

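All measured members were above background under the alternatives tried: 8 of 8 with a gene taken as the median over its probe sets, with the 99th percentile, with vomeronasal and taste receptors as reference and with either array left out (8 to 8). With unmarked probe sets only (none of _a_at, _s_at and _x_at) the count was 5 of 5, because Phgdh, Psat1 and Mthfd1l have no unmarked probe set. Without _s_at and _x_at sets, an alternative chosen after seeing the data, it was 7 of 7. For the further genes the count with unmarked sets was 32 of 37. Otherwise the count of 35 of 43 ranged from 34 (vomeronasal and taste receptors) to 38 (median over probe sets), and was 36 to 36 with either array left out. The share of all genes above background ran from 61.7% (vomeronasal and taste receptors) to 69.4% (unmarked sets). It was 66.9% with the median over probe sets. The members' median difference stayed between -0.048 (loess) and -0.0072 (median over probe sets), and 0 members reached 1.5-fold under these alternatives. Taking the median over probe sets moved all 6 genes with more than 1 probe set by more than the SD between replicates. The main value was the brightest probe set, so the median was lower by construction. For Mthfd2 that SD was 0, which any move exceeds. The largest move was -1.96 log2 units (Shmt2). Gldc and Mthfd1l, with 1 probe set each, could not move. No paired analysis was possible because there is only 1 group. Signal over background limits what can be said of genes with dim probe sets, such as Tyms and Folr2. Because probe sets differ in affinity, a dim probe set need not mean a scarce transcript.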
